A study of Mus musculus with 3 samples.

Results

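The RNA of the colony-stimulating factors and their receptors was described in mouse bone marrow-derived macrophages. The 8 genes, of 55536 annotated genes in the gene tables, were picked by name as the 3 ligand genes Csf1, Csf2 and Csf3 and the 5 receptor genes Csf1r, Csf2ra, Csf2rb, Csf2rb2 and Csf3r, by a rule that uses no measured value, though earlier results of these data were known. The series holds 1 group of 3 libraries (replicates 1, 2 and 3, here libraries 1, 2 and 3), all of primary macrophages from C57BL/6J mice stimulated for 50 min with 100 ng/ml of lipid A, the part of bacterial lipopolysaccharide that sets off Toll-like receptor 4. The cytosolic fraction was sequenced as total RNA after ribosomal RNA had been depleted, so RNA held in the nucleus was not measured. The labels name biological replicates that share 1 donor label, and do not say whether they came from separate animals or cultures. Every p-value below therefore measures only the spread between these libraries, which may be technical. No unstimulated sample was analysed, and no value is a response to lipid A. Age and sex are given as not collected, and the culture medium is not named.

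Colony-stimulating factors are secreted proteins named for the blood cell colonies they raise from marrow cells. CSF1 (M-CSF) binds the receptor tyrosine kinase CSF1R and keeps macrophages alive, CSF2 (GM-CSF) binds a specific alpha chain joined to a signalling beta chain, and CSF3 (G-CSF) binds CSF3R, the main growth signal of neutrophils. Macrophages are commonly grown from marrow in medium that holds CSF1, and activated macrophages can themselves make all 3 factors.

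All 5 receptor genes and the ligand genes Csf1 and Csf2 were at 1 TPM or more in each library, which makes 7 of 8 genes. TPM, the unit of level, is an abundance per transcript length, relative to all RNA listed for a library. Mean levels ran from 413 TPM for Csf1r to 0.443 TPM for Csf3. The libraries held 33044910, 36769402 and 36522216 expected counts (estimated reads) on genes. Protein-coding genes made up 38.4%, 26.6% and 34.8% of their TPM, lowest in library 2, and TPM rescaled to protein-coding genes is given where it matters. Of 8 macrophage markers 7 were at 1 TPM or more in each library, with summed levels of 9269, 6274 and 8992 TPM, and Marco, at a mean of 0.883 TPM, was the exception. Fibroblast markers summed to 0.05, 0.06 and 0.02 TPM, no B cell, mast cell, dendritic cell, endothelial or eosinophil marker reached 1 TPM in each library, and Cd3e of T cells had no count. Cd4 alone of the T, NK and innate lymphoid markers passed 1 TPM, at 26.7 ± 9.31 TPM (SD, n = 3).

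**Figure D1:**
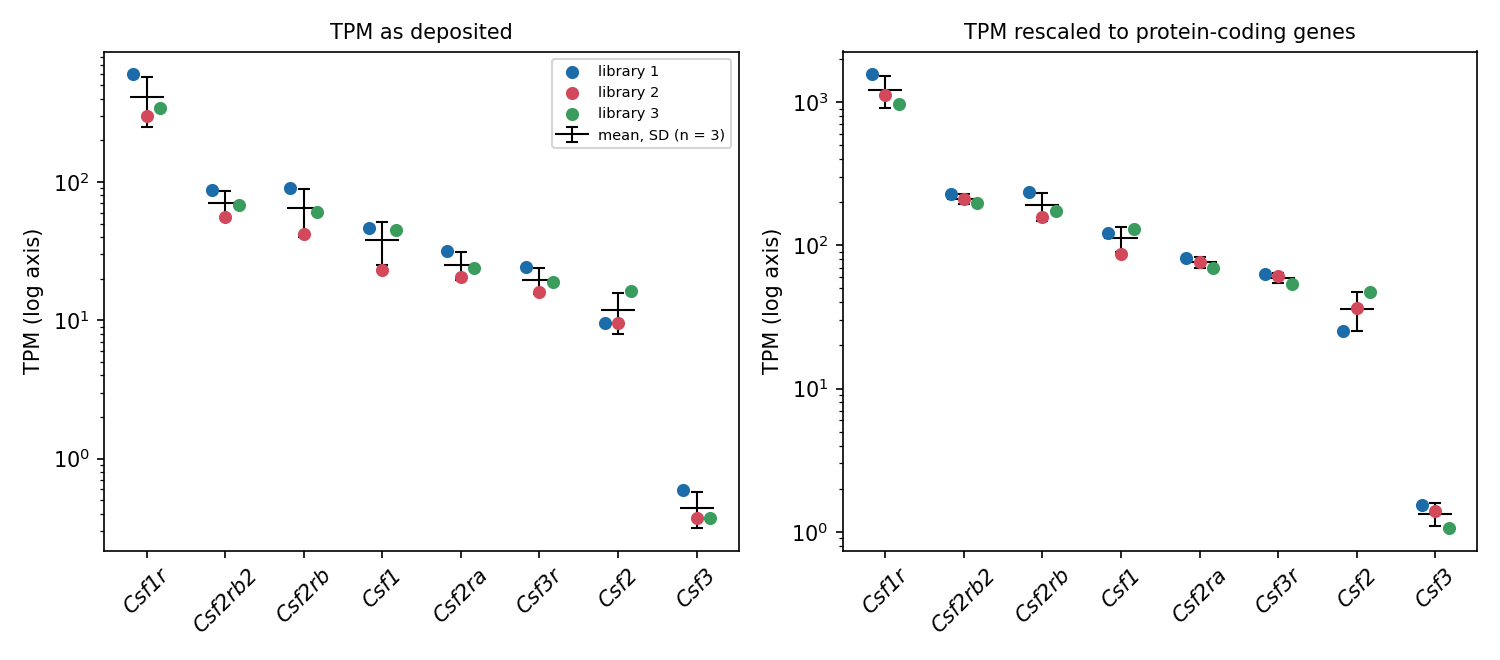
TPM of the 8 genes in each library on log axes, as deposited (left) and rescaled to protein-coding genes (right), with the mean and SD of 3 libraries in black. As deposited, 7 of 8 genes were highest in library 1 and 7 were lowest in library 2, counting Csf3, which tied there with library 3. Csf2 was highest in library 3 on both scales.

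Csf1 (ENSMUSG00000014599.10, mm10 chr3:107741048-107760469, minus strand) had the highest RNA level of the ligands. It stood at 46.5, 23.2 and 44.9 TPM in libraries 1, 2 and 3, with a mean of 38.2 ± 13.0 TPM (SD, n = 3). Libraries 1 and 3 were close and library 2 was lowest. Library 2 stayed lowest when TPM was rescaled to protein-coding genes, at 121, 87.3 and 129, with library 3 highest. In CPM, counts scaled to library size with no length, the values were 190, 126 and 192, a fold of 1.52 between the highest and the lowest library. The low value of library 2 was thus present on each of these scales.

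The Csf1 gene gives a long precursor that is cut to a secreted factor and a short form that stays on the cell surface, and the forms differ by how much of exon 6 is kept. Csf1-201, which encodes 552 amino acids with an exon 6 of 1016 bases, held 58.0%, 65.5% and 63.3% of Csf1 TPM in libraries 1, 2 and 3. Csf1-202, which encodes 257 amino acids with an exon 6 of 131 bases, held 25.1%, 12.1% and 15.4%. The transcript of the secreted precursor led in every library. A second deposited quantification of the same libraries gave Csf1-201 nearly the same mean share, 63.1 ± 4.68%, but Csf1-202 only 9.19%, 3.26% and 2.25%. The share of the cell-surface form thus differed between the quantifications. Csf1-202 holds no base that is not also in Csf1-201, but its junction of exons 5 and 6 differs from that of Csf1-201. Csf1-205, an annotated transcript of 773 bases, held 13.4 ± 2.61% in the first and 17.7 ± 2.34% in the second quantification. Csf1-203, which encodes the long precursor but ends in another last exon of 246 bases, held 4.42 ± 0.78% and 6.69 ± 2.68%. The level of Csf1 in the second quantification was 21.1, 10.1 and 10.9 TPM as deposited, where libraries 1 and 3 were not close. Rescaled to protein-coding genes it was 120, 102 and 138.

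Csf2 (ENSMUSG00000018916.5, mm10 chr11:54247271-54249667, minus strand) was present at a lower level. It had 234, 352 and 489 expected counts and 9.60, 9.63 and 16.4 TPM in libraries 1, 2 and 3, a mean of 11.9 ± 3.92 TPM. Library 3 was highest, and its deposited credibility interval of 14.6 to 17.5 TPM did not overlap that of library 1 (8.26 to 10.7) or library 2 (8.53 to 10.5). These intervals cover the uncertainty of assigning and counting reads within a library only. Rescaled to protein-coding genes the levels were 25.0, 36.2 and 47.2, so that libraries 1 and 2, close as deposited, stood apart. The second quantification as deposited gave 4.31, 3.46 and 3.66 TPM, with library 1 highest. Rescaled to protein-coding genes it gave 24.5, 35.1 and 46.2, with library 3 highest. In deposited TPM of the first quantification, Csf2 was the gene of the 8 that was not highest in library 1. An antisense gene that overlaps Csf2, Gm12223, had no count. The neighbouring cytokine gene Il3, 15635 bases away, had no count in any library.

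Csf3 (ENSMUSG00000038067.2, mm10 chr11:98701263-98703629, plus strand) was near the limit of what was measured. Its 30, 28 and 22 expected counts gave 0.59, 0.37 and 0.37 TPM, a mean of 0.443 ± 0.127 TPM. The deposited credibility intervals, 0.40 to 0.82, 0.25 to 0.52 and 0.23 to 0.53 TPM, overlapped in all 3 libraries. A difference between libraries in Csf3 was not detectable at this depth. Of all protein-coding genes listed, 53.1% lay below the mean level of Csf3.

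Cytokine mRNAs often carry AU-rich elements, repeats of ATTTA in the 3′ untranslated region (UTR) that are bound by proteins which speed mRNA decay, such as tristetraprolin, encoded by Zfp36. The stretches of 30 bases with the densest repeats in the ligand genes are shown, since the ligand genes differ in how densely ATTTA is packed there. They were read from GENCODE M21 transcripts (mm10), sense strand 5′ to 3′, and the capitals mark ATTTA, overlapping matches included. The Csf2 stretch lies at chr11:54247327-54247356 on the minus strand (UTR bases 232 to 261), the Csf3 stretch at chr11:98702984-98703013 on the plus strand (bases 24 to 53) and the Csf1 stretch at chr3:107741109-107741138 on the minus strand (bases 2021 to 2050).
Csf2: tttaaatATTTATTTATTTATTTATTTAtt
Csf3: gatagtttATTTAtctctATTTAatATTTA
Csf1: tttatataaggtcATTTAaatatctATTTA

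The 317-base 3′ UTR of Csf2 held ATTTA 9 times and the longer motif TTATTTATT 4 times. Among the other 15027 genes with a 3′ UTR at least as long, 0.00665% had as many ATTTA in their first 317 bases and 1.54% held TTATTTATT. By this count Csf2 stood near the top of genes with a 3′ UTR at least as long. Their bases past the first 317 were not counted, while the whole UTR of Csf2 was. The 669-base UTR of Csf3 held ATTTA 6 times and no TTATTTATT. Over the same length 1.35% of other genes had at least as many ATTTA and 3.78% held TTATTTATT. Csf1-201 held ATTTA 4 times in 2111 bases, where the median of other genes was also 4, and Csf1-203, with its other last exon, held none in 259 bases. Of the receptors, Csf1r-202 held 3 in 1669 bases and Csf1r-201 held 2 in 654. Csf2ra-201, Csf2rb-206, Csf2rb2-201 and Csf3r-202 held none, and Csf2rb-206 made up 0.253% of Csf2rb TPM on average. The transcript counted for a gene was the one with the longest complete coding sequence, and among equals the longest. Csf1-203 and Csf1r-201 were counted in addition. Only the sense strand was searched. A match describes the letters and was not tested as a site. Zfp36 RNA itself was at 1177, 734 and 995 TPM in libraries 1, 2 and 3, and all 8 listed genes for proteins that act on AU-rich mRNAs were at 1 TPM or more in each.

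Csf1r (ENSMUSG00000024621.16, mm10, chromosome 18, bases 61100598 to 61132149, plus strand) was the most abundant of the 8. It stood at 601, 299 and 340 TPM in libraries 1, 2 and 3, a mean of 413 ± 164 TPM. By this mean it ranked 102nd among protein-coding genes, with a short transcript described below included. With transcripts under 500 bases left out the mean was 297 ± 54.0 TPM, for which no rank was taken. By TPM library 1 was 2.01 times library 2. The expected counts, 60407, 63927 and 65651, did not follow that order, and in CPM the values were 1828, 1739 and 1798, a fold of 1.05. The deposited effective length of the gene, by which counts are scaled in TPM, was 2361, 3377 and 3899 bases, shortest where TPM was highest. Hmgxb3, which overlaps Csf1r on the other strand, was at 4.05 to 5.32 TPM, and as the strand setting is not given, reads in the shared stretch are uncertain.

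The effective length moved with Csf1r-205, an annotated transcript of 416 bases and 3 exons from the 5′ part of the gene. This transcript took 3.60%, 1.23% and 0.256% of Csf1r expected counts in libraries 1, 2 and 3, but 44.7%, 21.4% and 4.56% of Csf1r TPM. In the second quantification its TPM shares were 50.1%, 36.0% and 16.1%, in the same order of libraries. All but 2 of its 416 bases also lie in exons of Csf1r-201. Its first exon junction differs, as exon 2 starts at base 61105878 in Csf1r-205 and at 61105781 in Csf1r-201. With transcripts under 500 bases left out, Csf1r stood at 332, 235 and 324 TPM. Divided by the protein-coding total, these became 867, 883 and 933, a fold of 1.08 with no library apart. As background, 4764 protein-coding genes at 1 TPM or more have an annotated transcript under 500 bases, and such transcripts held a mean of 7.33%, 6.72% and 6.97% of their TPM. In library 1, 11.7% of these genes had over 20% of their TPM there, and in library 3, where Csf1r fell to 4.56%, the figure was 10.6%.

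**Figure D2:**
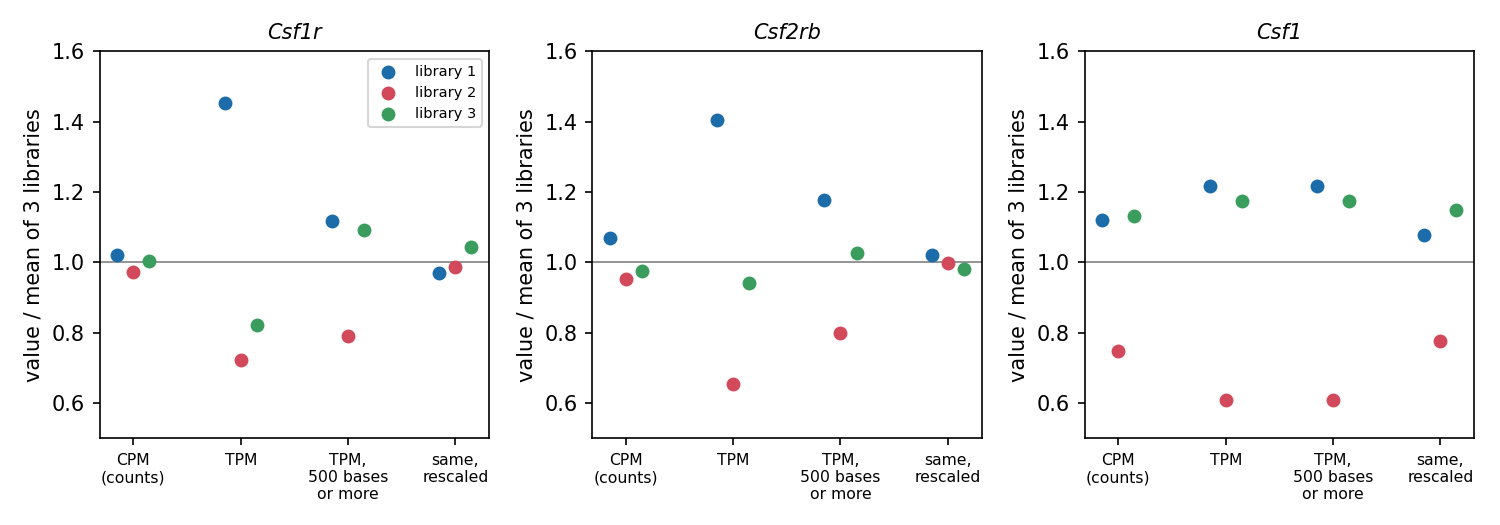
Each library's value divided by the mean of the 3 libraries, for Csf1r, Csf2rb and Csf1, measured as CPM, as TPM, as TPM on transcripts of 500 bases or more, and as the last rescaled to protein-coding genes. Csf1r and Csf2rb spread over 2.01-fold and 2.15-fold in TPM and over 1.08-fold and 1.04-fold in the last measure, while library 2 stayed lowest for Csf1 in each.

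The remaining Csf1r RNA was split between Csf1r-201 (3870 bases, 22 exons) and Csf1r-202 (4701 bases, 21 exons), which encode the same 977 amino acids. Their last exons differ in length, 831 bases in Csf1r-201 and 1846 bases in Csf1r-202. Csf1r-202 held 31.6%, 56.6% and 46.6% of Csf1r TPM in libraries 1, 2 and 3, and Csf1r-201 held 23.6%, 21.9% and 48.7%. A different transcript led in each library in this quantification, Csf1r-205, Csf1r-202 and Csf1r-201 in turn. In the second quantification Csf1r-201 led with 59.9 ± 16.5% and Csf1r-202 held 5.81 ± 0.65%. Which 3′ end was the major one is thus not settled by these values. For the other 7 genes the leading transcript was the same in both quantifications. Of these, 2, Csf2 and Csf3, have only 1 annotated transcript, so no other outcome was possible for them.

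Csf2ra (ENSMUSG00000059326.7, mm10 chr19:61223957-61228429, minus strand) encodes the alpha chain that gives the GM-CSF receptor its specificity. Its level was 31.5, 20.4 and 24.0 TPM in libraries 1, 2 and 3, a mean of 25.3 ± 5.63 TPM, and rescaled to protein-coding genes it was 82.1, 76.7 and 69.2. Library 1 was highest on both scales. Csf2ra-201, the full coding transcript, held 66.1 ± 3.80% of Csf2ra TPM. Csf2ra-205, which keeps part of an intron, held 29.7%, 18.0% and 14.2% of TPM but 10.5%, 5.84% and 4.86% of counts. Of its 632 bases, 70 lie outside Csf2ra-201, and they are what marks it as retaining intron sequence. Csf2ra-204, a 330-base transcript without a coding sequence, held 9.70 ± 2.83%.

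The beta chains come from a pair of genes that lie head to head, 20030 bases apart. Csf2rb (ENSMUSG00000071713.6, mm10 chr15:78325752-78353847, plus strand) encodes the common beta chain shared by the receptors of GM-CSF, IL-3 and IL-5. Csf2rb2 (ENSMUSG00000071714.7, mm10 chr15:78282507-78305721, minus strand) encodes a second beta chain of the mouse that serves IL-3 only. The coding sequences of Csf2rb-201 and Csf2rb2-201 were 95.2% identical over 2631 aligned bases, with 126 mismatches, and their transcripts shared an identical run of 242 bases. Of the aligned transcript, 18.3% lay in identical runs of 100 bases or more, and reads wholly inside such runs fit both genes. The coding window of 120 bases with the most mismatches, 22, is shown because such stretches are what separates the genes. It covers coding bases 309 to 428 of Csf2rb-201 and 312 to 431 of Csf2rb2-201, read from GENCODE M21 transcripts (mm10), sense strand 5′ to 3′, with the mismatches in capitals.
Csf2rb-201: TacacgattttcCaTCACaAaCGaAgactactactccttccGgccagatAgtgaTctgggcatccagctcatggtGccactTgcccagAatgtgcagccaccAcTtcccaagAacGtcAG
Csf2rb2-201: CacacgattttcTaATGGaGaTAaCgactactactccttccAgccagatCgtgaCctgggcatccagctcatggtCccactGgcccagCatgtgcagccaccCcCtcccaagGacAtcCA

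Csf2rb2 stood at 87.1, 56.1 and 68.2 TPM in libraries 1, 2 and 3, a mean of 70.5 ± 15.6 TPM. Csf2rb stood at 90.7, 42.2 and 60.8 TPM, a mean of 64.6 ± 24.5 TPM. The values of the pair overlapped, and Csf2rb2 was the higher in 2 of 3 libraries. In the second quantification Csf2rb was the higher in 2 of 3, with Csf2rb at 58.1%, 49.5% and 53.0% of their summed TPM. The order of the pair by TPM is thus not settled. By estimated counts of the second quantification Csf2rb2 was the higher in 3 of 3 libraries. Csf2rb had 14360, 12831 and 13352 such counts, and Csf2rb2 had 19008, 16647 and 16185. By expected counts Csf2rb held 42.7%, 43.1% and 44.7% of the pair, and by TPM 51.0%, 42.9% and 47.1%. As with Csf1r, a short transcript stood between these scales. Csf2rb-202 (397 bases), each base of which is also in Csf2rb-201, took 1.77%, 0% and 0.578% of Csf2rb counts but 32.2%, 0% and 11.6% of its TPM. On transcripts of 500 bases or more Csf2rb held 41.4%, 42.7% and 44.1% of the pair, a mean of 42.7 ± 1.33%. Rescaled to protein-coding genes, Csf2rb on those transcripts stood at 161, 157 and 155. Reads wholly in the shared sequence fit both genes, and how far they moved the split was not tested. Csf2rb2-201 held 94.0 ± 2.34% of Csf2rb2 TPM. Csf2rb2-202, of 3375 bases, held 4.85 ± 1.81% in the first quantification and 10.5 ± 4.99% in the second.

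**Figure D3:**
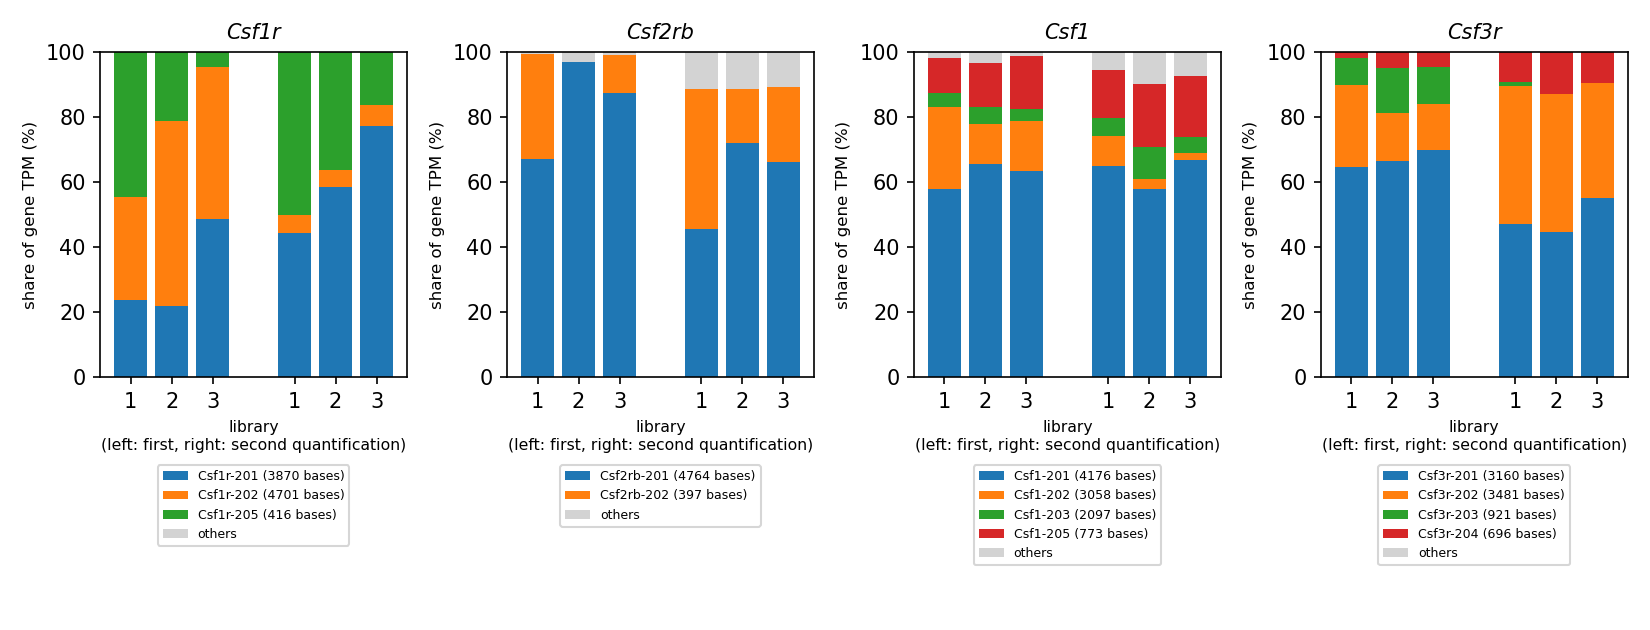
Share of each gene's TPM on its annotated transcripts, in libraries 1 to 3 of the first (left 3 bars) and second (right 3 bars) quantification. The short transcripts Csf1r-205 and Csf2rb-202 took their largest shares in library 1 in both, 44.7% and 32.2% in the first and 50.1% and 42.9% in the second.

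Csf3r (ENSMUSG00000028859.14, mm10 chr4:126024550-126044440, plus strand), the G-CSF receptor gene, was at 24.2, 16.1 and 18.8 TPM in libraries 1, 2 and 3, a mean of 19.7 ± 4.12 TPM. Rescaled to protein-coding genes it was at 63.1, 60.6 and 54.0, with library 1 highest on both scales. Csf3r-201 and Csf3r-202 encode the same 837 amino acids and differ in their 5′ exons. Csf3r-201 held 64.4%, 66.4% and 69.7% of Csf3r TPM, and Csf3r-202 held 25.3%, 14.7% and 14.3%. In the second quantification they were closer, at 48.9 ± 5.50% and 40.1 ± 4.08%. Csf3r-203, without a coding sequence, held 11.1 ± 2.75% in the first quantification but 0.398 ± 0.689% in the second. Csf3r-204, also without a coding sequence, held 3.99 ± 1.69% in the first and 10.6 ± 1.96% in the second. Csf3r is best known from neutrophils, and 3 of 10 neutrophil and precursor markers were at 1 TPM or more in each library. S100a9 was at 19.8 ± 2.41 TPM, S100a8 at 11.9 ± 0.376 TPM and Mmp8 at 6.55 ± 1.94 TPM. The 10 markers summed to 44.9, 38.7 and 36.1 TPM. The means of the others were lower, with Ltf at 0.887, Elane at 0.25, Camp at 0.24 and Mpo at 0.193 TPM. Cxcr2 was at 0.0733 TPM and Retnlg at 0.0133 TPM, and Ly6g had no count. The part of such cells in the Csf3r level was not tested, and in bulk RNA a few cells of a type with much RNA and many cells with little cannot be told apart.

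By mean TPM the order from high to low was Csf1r, Csf2rb2, Csf2rb, Csf1, Csf2ra, Csf3r, Csf2 and Csf3. Of the 7 pairs of neighbours, 2 had values that did not overlap between genes. Csf1r lay above Csf2rb2 by 2.49 ± 0.25 and Csf2 above Csf3 by 3.12 ± 0.49 on the log2(TPM + 1) scale, each taken within libraries and positive in 3 of 3. Csf2rb2 and Csf2rb did not differ beyond their spread, at 0.17 ± 0.23. Csf2ra lay above Csf3r by only 0.34 ± 0.02, yet in 3 of 3 libraries. In the second quantification Csf2rb came before Csf2rb2, and the rest of the order was the same. With TPM rescaled to protein-coding genes the order stayed and 6 of 7 pairs did not overlap, the exception being Csf2rb2 and Csf2rb. With 3 libraries the two-sided exact permutation test cannot go below 0.25, so no step of the order could pass a threshold of 0.05.

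In each of 4 pairs the receptor gene had a higher RNA level than the gene of its ligand, in 3 of 3 libraries. Csf1r exceeded Csf1 by 3.66, 3.63 and 2.89 on the log2(TPM + 1) scale, a mean of 3.39 ± 0.44. The TPM ratio was 12.9, 12.9 and 7.56, lowest in library 3. That order rests on the short Csf1r-205, for on transcripts of 500 bases or more the ratio was 7.14, 10.1 and 7.21, and the log2 difference was 2.97 ± 0.27. Csf2ra exceeded Csf2 by 1.61, 1.01 and 0.53, a mean of 1.05 ± 0.55, and Csf2rb exceeded Csf2 by 3.11, 2.02 and 1.83, a mean of 2.32 ± 0.69. Both were largest in library 1, where both receptor genes were highest in TPM, while Csf2 was at 9.60 and 9.63 TPM in libraries 1 and 2. The TPM ratio of Csf2rb to Csf2 was 9.45, 4.38 and 3.71. On transcripts of 500 bases or more, which leave out the short Csf2rb-202, it was 6.41, 4.34 and 3.275. Csf3r exceeded Csf3 by 3.99, 3.64 and 3.85, a mean of 3.83 ± 0.17, and the TPM ratio was 41.0, 43.6 and 50.7. Over these 4 comparisons the two-sided exact permutation p was 0.25 for each, also after Benjamini-Hochberg adjustment, the smallest that 3 libraries allow.

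Whether a gene varied between libraries more than genes of its level was tested with edgeR on expected counts of 12231 genes. At an adjusted p under 0.05 the test called 203 genes, which is 1.66% of those tested. All 8 genes were tested and 0 were called, while 2, Csf1 and Csf2, had an unadjusted p under 0.05, as did 785 of all genes tested (6.42%). With DESeq2 size factors in the same fit 0 were called as well. The log2 CPM of Csf2 was 2.82, 3.30 and 3.72 (edgeR, unadjusted p = 0.0211, adjusted p = 0.493), and Csf1 had 7.56, 7.02 and 7.56 (edgeR, unadjusted p = 0.04995, adjusted p = 0.777). Csf2 was low in library 1 and high in library 3, while Csf1 was low in library 2. The other 6 genes had an edgeR adjusted p above 0.99. Csf1r had the narrowest range, at 10.83, 10.80 and 10.79. The median range of log2 CPM over the libraries was 0.32 for the 8 genes and 0.28 for all genes tested. On this scale 7 of 8 genes were highest in library 1, against 36.8% of all genes tested, but for Csf1 libraries 1 and 3 were level to 2 decimals, and its CPM without TMM scaling was highest in library 3.

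**Figure D4:**
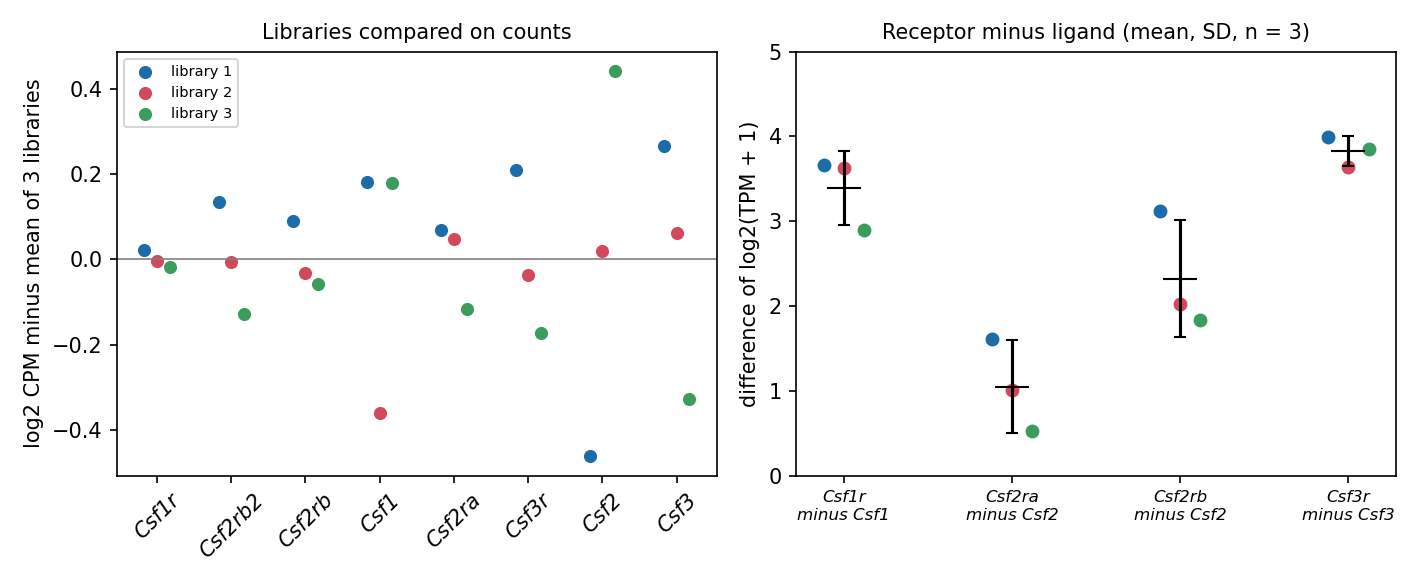
Left, log2 CPM of each gene in each library minus the mean of the 3 libraries. Right, the difference of log2(TPM + 1) between receptor and ligand in each library, with the mean and SD in black. Csf1r lies within 0.04 between its highest and lowest library, Csf2 spans 0.90, and all 12 receptor-ligand differences are above 0.

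Genes whose log2 CPM, centred on their mean, lay closest to a member's over the 3 libraries were looked up among 9510 protein-coding genes. For Csf1 they were Tmem173 (Euclidean distance 0.0120) and Cd1d1 (0.0215), and for Csf2 they were Lyrm1 (0.00393) and Cgas (0.0241). For Csf1r they were Rb1 (0.000952) and Strn3 (0.00127), and for Csf3r they were Snrpc (0.00215) and Erlin2 (0.00631). With 3 points per gene the likeness is a description of these libraries. Csf2ra was closest to Tgfb1 and Zfp146, Csf2rb to Ap1g1 and Bnip2, and Csf2rb2 to Dnajb14 and Rnpc3.

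The rest of the pathway was described by 6 lists with 68 genes, of which 62 could be tested and 1 was called by edgeR, beside 1.66% of all genes. The called gene was Cebpb, a transcription factor of the myeloid line, at 34.7, 43.5 and 58.6 TPM in libraries 1, 2 and 3 (edgeR adjusted p = 0.0243). It was lowest in library 1 on the count scale too, with log2 CPM of 5.83, 6.62 and 6.67. All 9 transcription factors on the list of factors known at the Csf1r locus were at 1 TPM or more in each library, with Spi1, which encodes PU.1, at 89.3 ± 17.9 TPM and Irf8 at 55.6 ± 7.29 TPM.

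Of 7 other ligands and receptor chains, only Il3ra, the alpha chain of the IL-3 receptor, was at 1 TPM or more in each library, at 30.2, 14.9 and 17.9 TPM. Il34, the other ligand of CSF1R, Il3 and the receptor-type phosphatase gene Ptprz1 had no count, and Il5 and Il5ra had 1 count each in all. The alpha chains of the GM-CSF and IL-3 receptors were thus present beside the beta chains, and that of IL-5 was at the limit of counting. At this depth a count of 0 allows up to 3 counts in a library, or 0.0908 CPM in library 1, the shallowest, for counting error only.

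Downstream of the receptors most listed genes were present. Of 14 JAK-STAT genes and their inhibitors 13 were at 1 TPM or more in each library. Socs3, an inhibitor of cytokine signalling that acts on the G-CSF receptor, was at 221, 185 and 304 TPM. Jak2, the kinase bound to the beta chain, was at 8.80 ± 0.961 TPM, and Stat5a and Stat5b were at 5.13 ± 0.772 and 9.52 ± 1.90 TPM. The inhibitor gene Cish, a target of STAT5, was at 2.55 ± 0.818 TPM, and Socs2 was the gene below 1 TPM, at 0.54 ± 0.25 TPM. Ptpn6, a phosphatase that dampens these receptors, was at 49.6 ± 8.66 TPM. Of 25 adaptors and kinases used by CSF1R, 24 were at 1 TPM or more, led by the adaptor Tyrobp (DAP12) at 952 ± 151 TPM, Grb2 at 157 ± 46.7 TPM and the kinase Syk at 93.6 ± 8.81 TPM. The Src-family kinase gene Fgr was the exception at 0.347 ± 0.0971 TPM. Of 5 genes of shedding and turnover 4 were at 1 TPM or more, among them Adam17, whose protease releases CSF1 and CSF1R from the cell surface, at 35.8 ± 5.87 TPM, and Timp3, an inhibitor of that protease, was at 0.0633 ± 0.0289 TPM.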

How the data were processed

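The members and gene lists were chosen with earlier results of these data known. Per the notes deposited with each library, reads were quantified by the authors on mm10 with GENCODE M21. The layouts of the deposited tables are those of RSEM (first quantification, genes and transcripts) and kallisto (second, transcripts); the sources used here name no tool, version or strand setting. The authors' values used were expected counts, TPM, percent of a gene's TPM per transcript, effective lengths and bounds of credibility intervals, whose level is not stated. Rows that name no gene were left out, and 0 columns of per-sample values were left unmatched.

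Here, a level is the mean and SD of deposited TPM over 3 libraries. Shares of transcripts were recomputed from TPM and expected counts. For the variation between libraries, expected counts were rounded to whole numbers and fitted with edgeR 4.0.16 in R 4.3.3 (filterByExpr, TMM, intercept only, trended dispersion), and the deviance left for each gene was put to a chi-square test of fit with Benjamini-Hochberg adjustment over 12231 genes; log2 CPM carry a prior count of 0.5. With 1 group, no contrast can be tested. The step was tested on simulated data. Within-library differences of log2(TPM + 1) used a two-sided exact sign-flip permutation test. DESeq2 1.42.0 gave the size factors of an alternative, and Python 3.11.15 with numpy 2.4.6, pandas 2.3.3, scipy 1.17.1 and matplotlib 3.10.9 did the rest. All 8 members are named, with transcripts at 5% or more of a gene's TPM in either quantification, up to the 3 highest genes of each list (1 is not reported here) and the 2 genes nearest each member. Other list genes (Jak2, Stat5a, Stat5b, Cish, Socs2, Fgr, Timp3) were chosen after their values were seen.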

Additional observations from a re-analysis of the deposited data

How the results depend on the processing

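Leaving out a library left 89 to 132 genes called as varying between libraries, against 203 with all, and no member was called under any alternative. The count of neighbouring genes with no overlap, 2 of 7, was 6 with TPM rescaled to protein-coding genes, 1 of 6 when only members at 1 TPM or more were kept, and 3 to 5 with a library left out. Csf3r minus Csf3, 3.83, became 5.19 with a pseudocount of 0.1, 5.46 with 0.01, 2.67 in the second quantification and 4.60 in the second rescaled to protein-coding genes, and stayed above 0. Of 204 alternatives over all results 176 gave the same reading. For levels, receptor minus ligand differences and transcript shares, the same reading meant a shift under 1 SD. Leaving out 1 of 3 libraries cannot move a mean that far, so the count includes alternatives whose outcome was fixed. By mean TPM the second quantification put Csf2rb above Csf2rb2, a reversal of that pair in the order, and no receptor minus ligand difference changed sign. Restricting TPM to transcripts of 500 bases or more, rescaling the second quantification, and the folds between libraries in CPM and in rescaled TPM were chosen after seeing the data. All 8 levels were lower in the second quantification as deposited, for example 183 TPM for Csf1r. Rescaled to protein-coding genes, the 2 quantifications gave 1223 and 1472 for Csf1r, 190 and 248 for Csf2rb, and 113 and 120 for Csf1. No paired analysis was possible because the series holds 1 group. The 22 to 30 counts of Csf3 limit any statement on it.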
